A study of Mus musculus with 6 samples.

Results

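The hair placode transcription factors described here are 10 genes, Lhx2, Sox9, Foxi3, Nfatc1, Msx1, Msx2, Dlx3, Foxn1, Sp6 and Trps1, read in embryonic mouse back skin. They were taken by name, with all probe sets that the array's annotation gives to 1 gene symbol. This gave 25 of 45037 probe sets and 9 of 18193 genes. Foxi3, a forkhead factor of the placode, had no probe set under its name and was not analysed here. RNA of back skin at E15.5 was hybridised to Affymetrix MOE430 2.0 arrays, on which sets of short probes read each transcript. The series compared 3 samples from Fzd6+/− embryos, called control, with 3 samples from Fzd6−/− embryos, called knockout, all of the strain C57BL6/129 mixed with no treatment named in the labels. Fzd6 encodes Frizzled 6, a receptor of planar cell polarity, the system that orients hair follicles along the body axis. The controls carry 1 mutant copy, so the comparison is between a reduced and an absent dose, without wild-type skin. The labels call the samples biological replicates without saying how many embryos each held, so the p-values measure the spread between these samples.

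Hair follicles begin as placodes, local thickenings of the embryonic epidermis that form under Wnt, ectodysplasin and fibroblast growth factor signals and exchange signals with a cluster of dermal cells beneath them, the dermal condensate. A set of transcription factors marks the placode and the cells that arise from it. Lhx2, Sox9 and Nfatc1 are best known from follicle progenitor and stem cells, whereas Msx2, Dlx3 and Foxn1 act later, in the matrix cells that make the hair shaft. Loss of Foxn1 gives the nude mouse. Placodes are a small part of whole back skin, and several of these genes are also used by dermal, vascular or cartilage cells. In such bulk RNA, fewer cells of a type and less RNA per cell cannot be told apart. The values also do not show which cells gave the RNA, those of the epidermis outside placodes included.

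No member passed the test between genotypes, and neither did any other probe set (0.0% of all at a limma adjusted p under 0.05). Lhx2 had the largest difference, with knockout values a factor of 1.61 above control (95% confidence interval 1.22 to 2.12, n = 3 per group, limma adjusted p = 0.909), and its groups did not overlap. All probe sets of 7 genes (Lhx2, Foxn1, Sp6, Msx1, Msx2, Dlx3 and Trps1) had higher means in the knockout, while those of Sox9 and Nfatc1 lay on both sides of 0. Of the 25 probe sets, 20 had a higher and 5 a lower mean in the knockout, where 50.6% of all probe sets were higher. By the brightest probe set of each gene, 7 of 9 were higher with a median difference of 0.093 on the log2 scale, beside 52.4% and 0.0070 for all genes. Probe sets of a gene share a transcript and the members were chosen with results of these arrays known, so these counts carry no test.

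The start regions of the 4 members among these 7 that RefSeq's promoter table (GRCm38.p6) holds are shown because every probe set of these genes read higher in the knockout. Each stretch is the 250 bases before an annotated start, 5′ to 3′ on the gene's strand. Capitals mark the TAATTA core bound by homeodomains, the class of Lhx2, Msx1, Msx2 and Dlx3, and the GGGCGG box bound by the Sp family, the class of Sp6, on either strand. Lhx2 has 2 starts in the table, at chr2:38339031-38339280 and chr2:38351058-38351307 on the + strand. Msx1 was taken from chr5:37824586-37824835, Msx2 from chr13:53472781-53473030 and Foxn1 from chr11:78386609-78386858, all on the − strand.
Lhx2, start 1: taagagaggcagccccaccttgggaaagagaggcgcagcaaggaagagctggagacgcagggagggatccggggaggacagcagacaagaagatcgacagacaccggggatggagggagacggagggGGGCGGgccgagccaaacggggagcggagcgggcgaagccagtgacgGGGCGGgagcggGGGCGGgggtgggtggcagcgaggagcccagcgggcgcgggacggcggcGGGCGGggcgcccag
Lhx2, start 2: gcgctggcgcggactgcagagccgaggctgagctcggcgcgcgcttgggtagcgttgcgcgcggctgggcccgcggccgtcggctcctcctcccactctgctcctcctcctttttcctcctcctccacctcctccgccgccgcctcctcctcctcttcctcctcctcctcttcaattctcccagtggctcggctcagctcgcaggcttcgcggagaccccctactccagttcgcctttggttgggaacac
Msx1: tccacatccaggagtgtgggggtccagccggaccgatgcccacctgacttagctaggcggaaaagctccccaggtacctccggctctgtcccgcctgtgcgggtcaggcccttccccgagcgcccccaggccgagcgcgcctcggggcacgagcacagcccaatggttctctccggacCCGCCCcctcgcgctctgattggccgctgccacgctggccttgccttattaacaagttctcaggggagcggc
Msx2: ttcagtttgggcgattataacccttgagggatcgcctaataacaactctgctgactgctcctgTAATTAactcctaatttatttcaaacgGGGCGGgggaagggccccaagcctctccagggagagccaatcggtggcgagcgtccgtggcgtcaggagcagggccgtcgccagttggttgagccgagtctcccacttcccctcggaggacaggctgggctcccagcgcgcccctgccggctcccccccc
Foxn1: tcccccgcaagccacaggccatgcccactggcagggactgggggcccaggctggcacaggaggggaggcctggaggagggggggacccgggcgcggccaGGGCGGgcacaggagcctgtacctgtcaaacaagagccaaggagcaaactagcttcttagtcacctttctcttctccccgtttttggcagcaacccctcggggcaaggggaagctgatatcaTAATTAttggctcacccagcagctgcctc

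TAATTA stood in the windows of Msx2, 187 to 182 bases before the start, and Foxn1, 29 to 24 bases before it, and in 4.84% of all 32851 windows of this length. GGGCGG stood 4 times before start 1 of Lhx2 and once each in Msx1 (on the opposite strand), Msx2 and Foxn1, and in 32.7% of all windows. The remaining letters searched on both strands, none of which occurs in these 5 windows, were TAATTG (Msx type, 7.17% of all windows), GTAAACA (forkhead, 3.17%), AACAAT (Sox, 9.42%), AGATAA (bound by the GATA class, 9.99%), TGGAAA (bound by the NFAT class, 18.6%) and CTTTGAT (for Wnt effectors, 3.21%). The windows held 61.6% to 72.8% G and C, against a mean of 53.2% over all windows. A match is only a match of letters in this window. The windows were chosen by the direction of differences that did not pass the test. The matches therefore say nothing about those differences. Foxi3, which was not measured, has a window with GGGCGG at 2 places that is not shown.

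As a check of the labels, the brightest Fzd6 probe set read 9.11 to 9.51 in the controls and 8.71 to 9.07 in the knockouts, and the dimmest 6.09 to 6.22 and 5.36 to 5.53. Both were lower in each knockout than in each control, and a further probe set overlapped. No Fzd6 probe set passed the adjusted threshold, and where their probes lie relative to the deleted part was not analysed here. Control 2 and knockout 3 had high Xist (13.3 and 13.2) and the other 4 arrays 5.42 to 6.14, which splits both groups alike. Knockout 1 and control 1 stood apart in their marker genes. Marker lists of skin cell types, as mean deviation from the average over the 6 arrays, gave −0.85 and −0.41 for 10 endothelial genes there against 0.26 to 0.35 in the other 4, and −0.59 and −0.29 for 9 fibroblast genes against 0.14 to 0.30. The 10 suprabasal epidermis genes, markers of differentiated keratinocytes, were highest in knockout 1 (0.53), followed by 0.10 and 0.0061 in knockouts 2 and 3, and lay at −0.26, −0.25 and −0.13 in the controls, so that their groups did not overlap. The 9 basal epidermis genes ran from −0.45 to 0.14 in the controls and from −0.28 to 0.31 in the knockouts. Skin identity was plain at these levels, with Krt14 of the basal layer at 12.2 to 13.4 and Lor, or loricrin, of the cornified layer at 13.2 to 14.2.

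**Figure D1:**
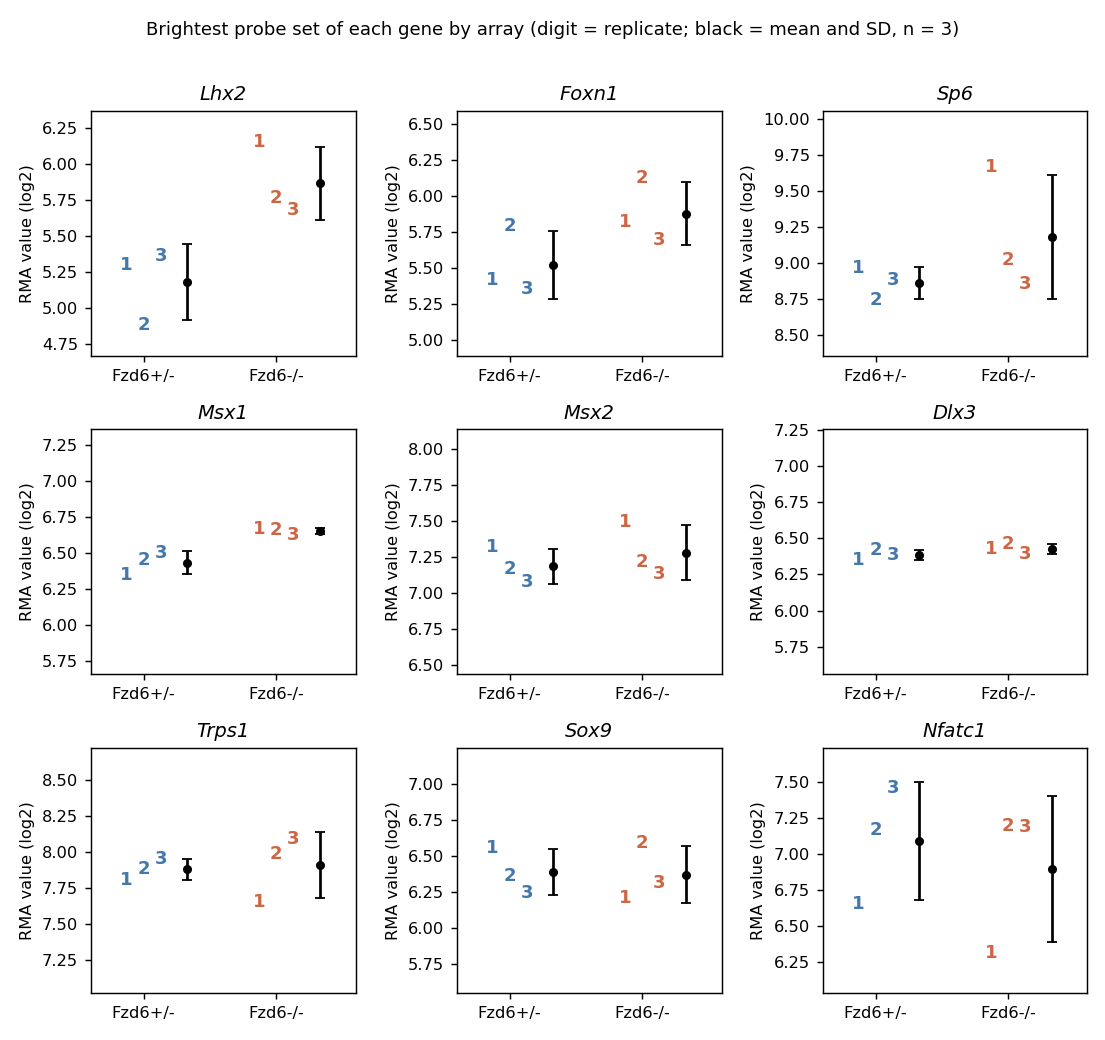
RMA value (log2) in the brightest probe set of each measured member, for the 3 Fzd6+/− and the 3 Fzd6−/− arrays; digits are replicate numbers, black points and bars are mean and SD, and each panel spans the same range of log2 units at its own level. Lhx2 and Msx1 are separated between the groups, and the other genes overlap.

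Lhx2, a LIM-homeodomain factor that keeps follicle progenitors undifferentiated, was read by 1 probe set (1418317_at). Its values (RMA, log2) were 5.30, 4.88 and 5.36 in controls 1 to 3 and 6.16, 5.76 and 5.68 in knockouts 1 to 3. All knockouts lay above all controls, with control 2 the lowest and knockout 1 the highest. The means were 5.18 ± 0.26 in control and 5.87 ± 0.25 in knockout skin (SD, n = 3), a difference of 0.68 (0.29 to 1.08) on the log2 scale, with a limma adjusted p = 0.909 (unadjusted 0.0044) over 45037 probe sets. The exact two-sided permutation p was 0.1, the smallest that 3 against 3 can give. Among all genes, 118 had a larger rise and 38 a smaller p. The level lay below the median of all probe sets (6.02), where detection is unknown without scanner files. Within replicate numbers 1 to 3 the differences were 0.85, 0.88 and 0.32. Leaving out 1 array at a time moved the difference between 0.53 (without control 2) and 0.78 (without knockout 3), and without both replicate 1 arrays it was 0.60.

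The suprabasal markers moved with Lhx2 across the arrays, being highest in knockout 1 and lower in each control than in each knockout. With the mean of that list as a covariate, the Lhx2 difference was 0.27 (−0.22 to 0.76), against 0.68 with the basal epidermis list. The part of differentiated epidermis in the Lhx2 difference cannot be told apart from genotype with groups that do not overlap in both measures. Relative to the mean of 20 placode signals and receptors on the same array, Lhx2 lay at −3.27, −3.73 and −3.05 in controls 1 to 3 and at −2.33, −2.82 and −2.72 in the knockouts, a shift of 0.73 (exact permutation p = 0.1). Relative to the basal epidermis list the shift was 0.55 and the groups overlapped (exact permutation p = 0.2). The levels themselves belong to different probes, so only the shift between arrays can be read.

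The genes whose centred values lay nearest to Lhx2 over the 6 arrays were found among 11849 genes above the median level, by root mean square distance. They were Cmtm8 (distance 0.079), Tmem40 (0.093), 1110008P14Rik (0.095), Dkkl1 (0.097) and Paqr3 (0.10), where the median gene lay at 0.43. Their knockout minus control differences were 0.56, 0.56, 0.51, 0.66 and 0.56 on the log2 scale, none past limma's adjusted threshold (adjusted p = 0.909 each). Each had its lowest value in control 2 and its highest in knockout 1, as Lhx2 did. The genes were picked for this likeness, so their differences and this order follow from the choice and carry no test. With the suprabasal covariate the differences of Cmtm8, Tmem40 and 1110008P14Rik were 0.13 (−0.31 to 0.57), 0.016 (−0.42 to 0.45) and 0.0049 (−0.49 to 0.50). Those of Dkkl1 and Paqr3 were 0.082 (−0.35 to 0.51) and −0.073 (−0.55 to 0.40). Likeness over 6 arrays is a description.

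Sox9, an HMG-box factor of early follicle stem cells that is also the master regulator of cartilage, had differences near 0 in its 3 probe sets, none past the test. Its brightest probe set (1451538_at) read 6.56, 6.36 and 6.25 in controls 1 to 3 and 6.21, 6.59 and 6.31 in knockouts 1 to 3. The groups overlapped throughout, with a difference of −0.017 (−0.32 to 0.28), or 0.19 (−0.26 to 0.65) with the suprabasal covariate. The dimmer sets, 1 of them made from the same cDNA, gave −0.037 (−0.26 to 0.19) and 0.037 (−0.21 to 0.29). The lowest of these sets read only 3.47 to 3.84. Of 8 cartilage genes, 4 were higher and 4 lower and only 1 lay above the median level. Snorc, Acan and Col11a2 of that list differed by 0.17, 0.21 and −0.100, none past the test.

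Nfatc1, a calcineurin-dependent factor that holds follicle stem cells quiescent and also serves endothelial cells, was read by 5 probe sets. The brightest (1428479_at) read 6.65, 7.17 and 7.46 in controls 1 to 3 and 6.31, 7.20 and 7.19 in knockouts 1 to 3. Its low arrays were control 1 and knockout 1. There the endothelial list was at −0.41 and −0.85, the fibroblast list at −0.29 and −0.59 and the dermal condensate list at −0.13 and −0.37. The genotypes overlapped in this set. The difference was −0.19 (−0.86 to 0.47), the widest interval of any member, and it turned to 0.098 without knockout 1 and to 0.40 (−0.51 to 1.31) with the suprabasal covariate. The next set gave 0.049 (−0.29 to 0.39) with its lowest values again in control 1 and knockout 1 (6.63 and 6.67, against 6.85 to 7.10 elsewhere). The 3 dimmer sets, of which 2 share 1 source sequence, gave −0.076 (−0.28 to 0.13), −0.064 (−0.25 to 0.12) and 0.087 (−0.10 to 0.27). The part of vessel or dermal content in these values was not tested. Of 8 calcineurin pathway genes, the phosphatase and its regulators that switch NFAT factors on and off, 2 were higher and 6 lower and 0 passed, with a median of −0.059. The phosphatase subunit Ppp3cb differed by −0.18 and the inhibitor Rcan2 by −0.47 (−1.58 to 0.64), which like Nfatc1 was lowest in knockout 1 (5.40) and control 1 (6.58).

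**Figure D2:**
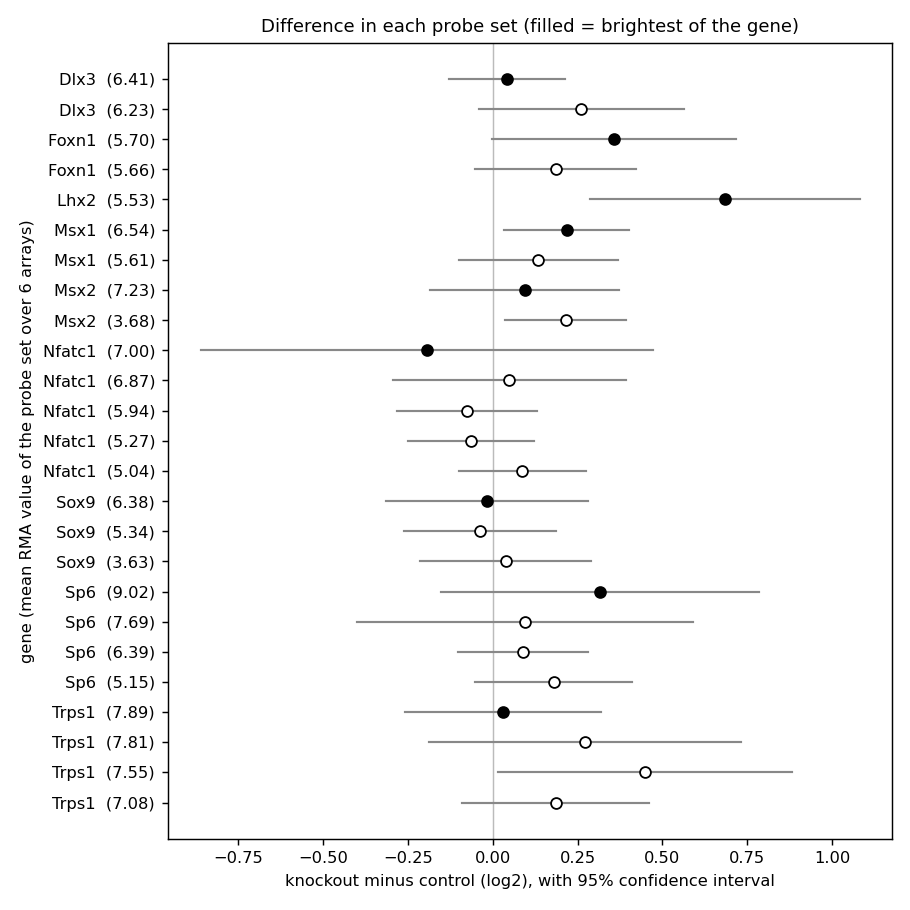
Knockout minus control difference (log2) with its 95% confidence interval from limma for each of the 25 probe sets of the measured members; filled points are the brightest set of a gene and the mean RMA value of the set over 6 arrays stands beside its name. Of the 25, 20 lie above 0 and the intervals of 4 (Lhx2, 1 of Msx1, the dimmer of Msx2 and 1 of Trps1) leave out 0.

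Msx1 and Msx2 are related homeodomain repressors that respond to bone morphogenetic protein signals. The brighter Msx1 set (1417127_at) read 6.350, 6.452 and 6.504 in controls 1 to 3 and 6.669, 6.662 and 6.628 in knockouts 1 to 3. The groups did not overlap, and the 3 knockouts lay close together. The means were 6.44 ± 0.079 in control and 6.65 ± 0.022 in knockout skin, a small difference of 0.22 (0.034 to 0.40), with a limma adjusted p = 0.909 (unadjusted 0.026). Leaving out arrays kept it between 0.17 and 0.25, and with the suprabasal covariate it was 0.17 (−0.15 to 0.49). The dimmer Msx1 set (1448601_s_at), built on the same cDNA, read 5.46 to 5.59 in the controls and 5.50 to 5.77 in the knockouts, overlapped, and gave 0.13 (−0.10 to 0.37).

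Msx2, needed in the hair matrix for shaft growth, was read best by 1449559_at, at 7.32, 7.17 and 7.08 in controls 1 to 3 and 7.49, 7.22 and 7.13 in knockouts 1 to 3. The groups overlapped, at 0.093 (−0.18 to 0.37). Knockout 1 was the highest array and without it the difference was −0.014. With the suprabasal covariate it was −0.14 (−0.54 to 0.26). The other set (1438351_at) read 3.54 to 3.63 in the controls and 3.74 to 3.84 in the knockouts, without overlap, at 0.21 (0.037 to 0.39). Its unadjusted limma p was 0.0244 (adjusted p = 0.909), at a level near the bottom of the array's range (2.39). With the suprabasal covariate it was 0.14 (−0.16 to 0.45). The brighter set did not show this separation.

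Dlx3, a homeodomain factor of shaft and inner root sheath formation, was steady in its brighter set (1422037_at), which read 6.35, 6.42 and 6.38 in controls 1 to 3 and 6.42, 6.46 and 6.39 in knockouts 1 to 3. The 6 arrays spanned 0.11, the narrowest range of any member's set, and the difference was 0.042 (−0.13 to 0.21). The second set, from the same source sequence, read 5.85, 6.35 and 6.10 in controls 1 to 3 and 6.42, 6.30 and 6.35 in knockouts 1 to 3. Control 1 was low there and control 2 stood among the knockouts, at 0.26 (−0.042 to 0.56), and without replicate 1 of both groups this fell to 0.10. Its relative Dlx5 in the family list read 8.74 to 8.80 in the controls and 8.83 to 9.31 in the knockouts, without overlap. The Dlx5 difference was 0.32 (0.030 to 0.61, limma adjusted p = 0.909), or 0.020 (−0.35 to 0.39) with the suprabasal covariate.

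Foxn1, the forkhead factor of the nude mouse, drives differentiation of shaft cells and lay below the median level in both its sets. The set with the slightly higher mean (1456815_at) read 5.41, 5.79 and 5.35 in controls 1 to 3 and 5.82, 6.12 and 5.69 in knockouts 1 to 3. Control 2 lay above knockout 3, so the groups overlapped. The difference was 0.36 (−0.0019 to 0.72) with a limma adjusted p = 0.909 (unadjusted 0.051), and it ran from 0.24 without knockout 2 to 0.49 without control 2. Within replicate numbers 1 to 3 it was 0.41, 0.33 and 0.34, and with the suprabasal list as a covariate 0.42 (−0.19 to 1.04). The other set (1450508_at) read 5.53 to 5.65 in the controls and 5.57 to 5.86 in the knockouts, at 0.18 (−0.052 to 0.42). With that covariate its difference was 0.064 (−0.33 to 0.45). Relative to the 20 placode signals on the same array, the brighter set was shifted by 0.40, with no overlap (exact permutation p = 0.1). Relative to the basal epidermis list it was shifted by 0.23, with overlap (exact permutation p = 0.3). Both comparisons were run for all 9 measured members, and Lhx2 and Foxn1 are reported because they gave the smallest values. For the other members the exact permutation p ran from 0.2 to 0.9.

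Genes of the hair shaft and inner root sheath, the tissues that Foxn1, Msx2 and Dlx3 serve, were read for comparison. Of 16 measured, 14 had higher and 2 lower values with a median of 0.10, and none passed. At an unadjusted limma p under 0.05 there were 3, all higher, beside 5.07% of all genes in either direction and 3.17% with the knockout higher. In 5 the groups did not overlap, all with the knockout higher, where 11.3% of all genes showed no overlap and 6.99% with the knockout higher. Krt27 of the sheath differed by 0.27, and the shaft keratins Krt33b and Krt34 by 0.23 and 0.27 (limma adjusted p = 0.909 each). With the suprabasal covariate these were 0.38 (0.014 to 0.75), 0.12 (−0.19 to 0.42) and 0.039 (−0.33 to 0.41). Only 4 of the 16 lay above the median level. Krt27 read 4.55 to 4.80 in the controls and 4.88 to 5.05 in the knockouts, and detection at such levels is unknown here.

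Sp6, or epiprofin, is a zinc finger factor of proliferating epithelial cells in hair and teeth and was read by 4 sets. The brightest (1437788_at) read 8.96, 8.74 and 8.88 in controls 1 to 3 and 9.66, 9.02 and 8.85 in knockouts 1 to 3. Knockout 1 was far the highest, knockout 2 lay just above the controls and knockout 3 lay below 2 of them. The difference of 0.32 (−0.15 to 0.78) became 0.073 without knockout 1. With the suprabasal list as a covariate it was −0.30 (−0.69 to 0.082). The next set (1427787_at) also had its highest value in knockout 1, which read 8.24 where the rest read 7.31 to 7.71, and gave 0.094 (−0.40 to 0.59). It turned to −0.16 without knockout 1 and to −0.57 (−0.96 to −0.17) with that covariate. The 2 dimmer sets gave 0.088 (−0.10 to 0.28) and 0.18 (−0.052 to 0.41). High Sp6 thus sat in the array with the highest suprabasal and basal markers (0.53 and 0.31), whose part was not tested further.

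Trps1, a GATA-type zinc finger repressor, is expressed in placodes and in the dermal condensate, and its loss in people affects hair. It was the member on Fzd6's own chromosome, with 24 protein-coding genes between them in the order of GRCm38.p6. Its 4 sets did not give 1 value. The brightest (1457445_at) read 7.80, 7.88 and 7.95 in controls 1 to 3 and 7.65, 7.98 and 8.09 in knockouts 1 to 3, at 0.030 (−0.26 to 0.32). The third (1449530_at) read 7.04, 7.28 and 7.63 in controls 1 to 3 and 7.46, 7.99 and 7.86 in knockouts 1 to 3. There control 3 overlapped with the lowest knockout, and the difference was 0.45 (0.016 to 0.88) with a limma adjusted p = 0.909 (unadjusted 0.044). It ran from 0.31 without control 1 to 0.60 without control 3 and was 0.71 (0.030 to 1.38) with the suprabasal list as a covariate. The second and the dimmest sets gave 0.27 (−0.19 to 0.73) and 0.19 (−0.090 to 0.46), with knockout 2 the highest array in both. Without knockout 2 they were 0.091 and 0.10, and the brightest set turned to −0.062 without knockout 3. With the suprabasal covariate the brightest set was at 0.34 (−0.026 to 0.70), the second at 0.49 (−0.25 to 1.23) and the dimmest at 0.18 (−0.30 to 0.65). The dermal condensate list, which includes Trps1, had 3 of 10 genes higher with a median of −0.083. Its leading gene Tbx18 differed by −0.38 (−0.95 to 0.18).

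**Figure D3:**
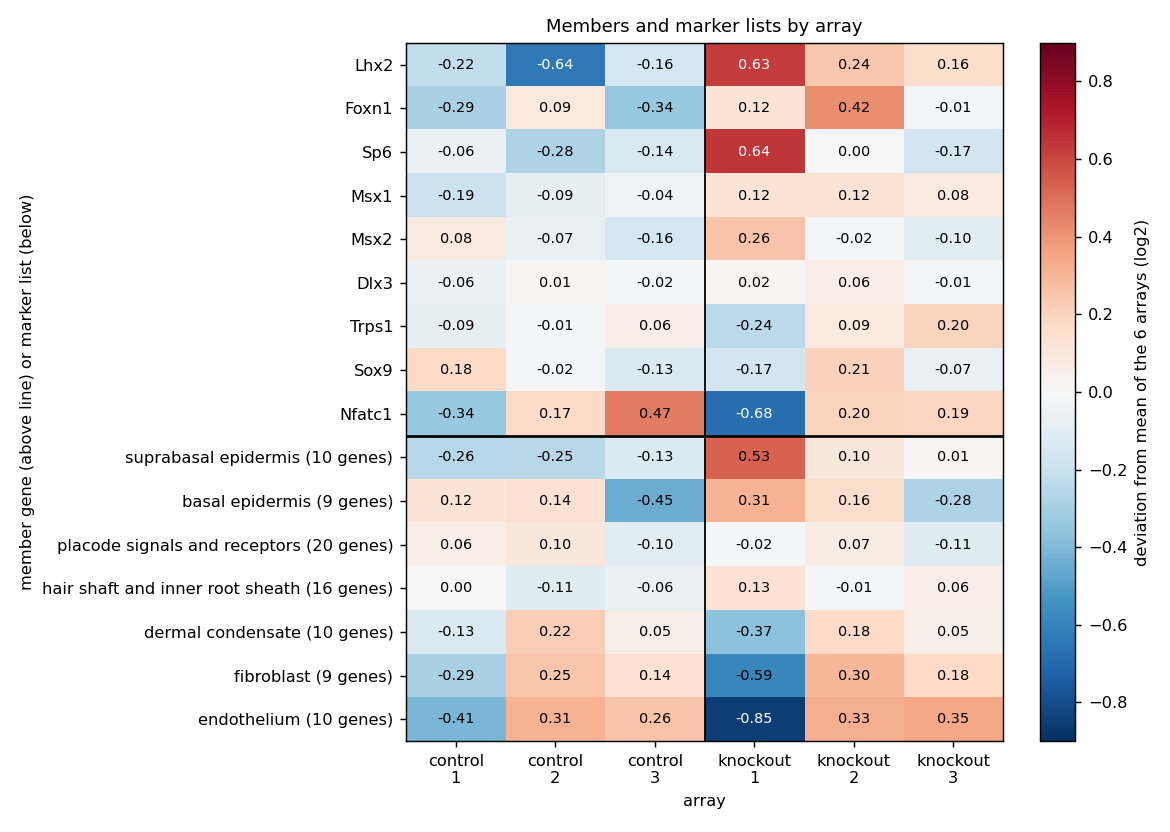
Deviation of each array from the mean of the 6 (log2) for the brightest probe set of each member (above the line) and for the mean of marker lists (below), with controls left and knockouts right. Lhx2, Sp6, Msx2 and, narrowly, Msx1 are highest in knockout 1, as the suprabasal list is (0.53). Nfatc1 and Trps1 are lowest in knockout 1 and control 1. So are the endothelial (−0.85 and −0.41), fibroblast (−0.59 and −0.29) and dermal condensate lists (−0.37 and −0.13).

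Across the arrays, 10 of the 25 probe sets had their highest value in knockout 1, 9 in knockout 2, 3 in knockout 3 and 3 in a control. The lowest value fell in control 1 for 7, control 2 for 6, control 3 for 4, and knockouts 1 and 3 for 4 each. In knockout 2 none was lowest. The largest spreads over the 6 arrays (SD, log2) were those of Lhx2 (0.44) and the brightest Nfatc1 set (0.43).

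Of the member sets, 4 (16.0%) had an unadjusted limma p under 0.05, all higher in the knockout, beside 5.21% of all probe sets in either direction, 2.58% with the knockout higher and 2.63% with it lower. With the replicate block these were 7 (28.0%), all higher, beside 12.0% of all probe sets in either direction and 5.15% with the knockout higher. The added sets were the Foxn1 set 1456815_at, which went from an unadjusted 0.051 to 0.0016, the second Trps1 set and the brightest Sp6 set, and the smallest adjusted p of a member was 0.335 in that limma fit. Groups without overlap were found in 3 (12.0%), namely Lhx2, the brighter Msx1 and the dim Msx2 set, beside 11.6% of all probe sets, and all 3 were higher in the knockout, beside 6.55%. The share without overlap was thus near that of the whole array. None of the 25 passed limma's adjusted p of 0.05 (smallest 0.909).

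Lists of the genes around these factors, adjusted over all probe sets by limma, gave 0 passing genes each. With the marker lists, 15 of 180 distinct genes (8.33%) had an unadjusted p under 0.05, beside 5.07% of all genes, and 6 of the 15 were suprabasal epidermis genes. Among 19 other hair follicle transcription factors, 11 were higher and 8 lower with a median of 0.0088. Vdr, the vitamin D receptor of the hair cycle, read 5.975 to 5.998 in the controls and 6.24 to 6.81 in the knockouts (0.49, 0.15 to 0.82), a difference of 0.063 (−0.25 to 0.38) with the suprabasal covariate. Knockout 1 was again the highest. Hr, or hairless, a corepressor that works with this receptor, differed by 0.28 (0.0071 to 0.54) and Hoxc13, a regulator of hair keratins, by 0.22 (−0.062 to 0.50). Among 26 relatives of the members, 16 were higher and 10 lower with a median of 0.023. The relatives Lhx4 and Sox8 differed by 0.18 and −0.19.

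Signals and receptors of the placode lay on both sides of 0. Of 20 measured, 9 were higher and 11 lower, with a median of −0.073. The receptor Fgfr2 read 10.07 to 10.25 in the controls and 9.84 to 10.01 in the knockouts (−0.22, −0.43 to −0.0052), the ligand Bmp2 differed by 0.21 and the ligand Eda, or ectodysplasin, by −0.19 (−0.41 to 0.024). The groups did not overlap in these 3 of the 20, where 11.3% of all genes showed no overlap. With the suprabasal covariate the 3 differences were −0.12 (−0.47 to 0.23), 0.12 (−0.24 to 0.48) and −0.030 (−0.36 to 0.30). Of 9 genes in the list of LIM cofactors, 3 were higher and 6 lower with a median of −0.013. Lmo1, Ldb2 and Lmo2 had the smallest p, at 0.10, −0.14 and −0.091. Of 10 follicle progenitor genes, 5 were higher and 5 lower. Krt79, a keratin of the upper follicle, differed by 0.66 (0.18 to 1.13) without overlap, or 0.13 (−0.42 to 0.69) with the suprabasal covariate, Krt15 by 0.30 and Cd34 by −0.28.

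The marker lists of other skin cells, counted in the same way, also gave 0 passing genes each. All 10 suprabasal genes were higher in the knockout with a median of 0.33, among them Ivl, a precursor of the cornified envelope (1.02, 0.43 to 1.61), Lor (0.56) and Calm4 (0.89). In 7 of the 10 the groups did not overlap, beside 11.3% of all genes and 6.99% with the knockout higher. Of 9 basal genes, 7 were higher and 2 lower (median 0.14), led by Krt14 at 0.31. Of 9 fibroblast genes, 3 were higher and 6 lower (median −0.063), and of 10 endothelial genes, 2 were higher and 8 lower (median −0.18). Skeletal muscle had 4 of 10 higher (median −0.049), and 5 of 7 melanocyte and Schwann genes were higher (median 0.24). The pigment cell gene Mlana differed by 0.40 without overlap, or by −0.10 (−0.60 to 0.40) with the suprabasal covariate. Dct and Foxd3 of that list differed by 0.31 and −0.26, both with overlap. The suprabasal mean and the member mean were both higher in each knockout than in each control, but their order within the knockouts differed. The mean deviation in knockouts 1 to 3 was 0.078, 0.15 and 0.030 for the members and 0.53, 0.10 and 0.0061 for the suprabasal list. With the suprabasal covariate the median member difference was 0.19, against 0.093 without it. The share of suprabasal content in the member values was not tested beyond the covariate values given.

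**Figure D4:**
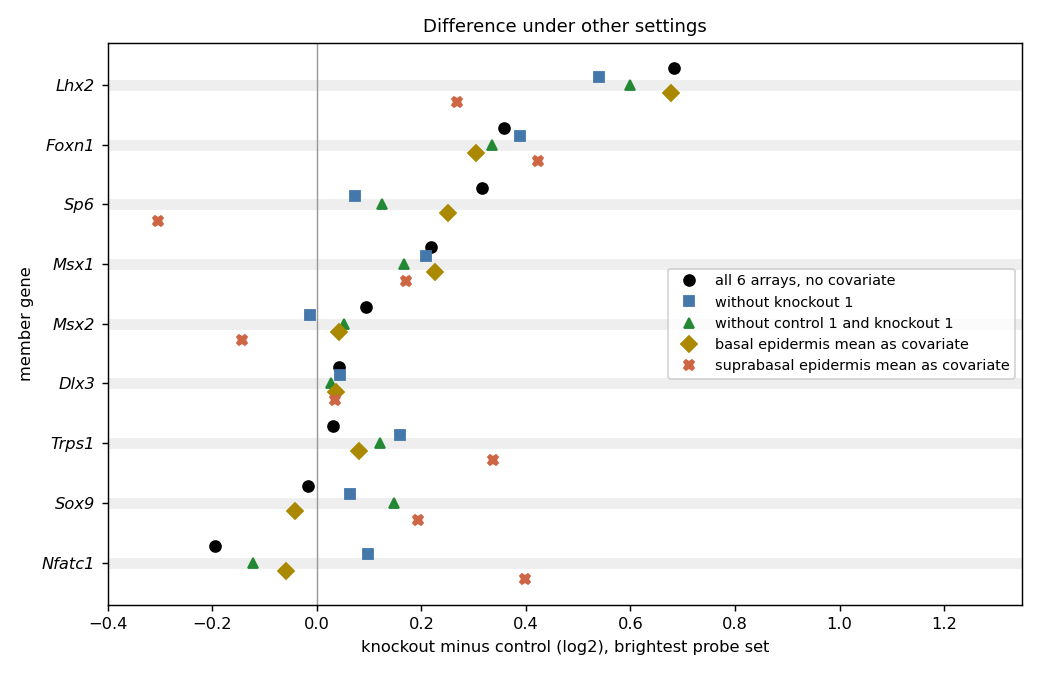
Knockout minus control difference (log2) in the brightest probe set of each member with all 6 arrays and under 4 other settings: without knockout 1, without control 1 and knockout 1, and with the basal or the suprabasal epidermis list mean as a covariate. Lhx2, Foxn1, Msx1, Dlx3 and Trps1 stay above 0 in all 5, whereas Sp6 runs from 0.32 to −0.30 and Nfatc1 from −0.19 to 0.40. The Trps1 set, at 0.030 with all arrays, was at −0.062 without knockout 3, which is not drawn.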

How the data were processed

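Total RNA of back skin was biotin labelled and hybridised to 6 MOE430 2.0 arrays, 3 per genotype, per the labels. The deposited values were made by the authors with RMA (background correction, quantile normalisation, summary per probe set), per the submitters' processing notes, which give no version. The authors deposited these RMA values without naming a log base, and their range of 2.39 to 14.8 was read as log2. RMA forces nearly equal array medians (5.99 to 6.03), so a shift of most genes would not show.

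Of 45101 rows, 64 array controls were left out and no low values were filtered. Names came from the platform annotation, updated through Entrez identifiers to GRCm38.p6 (34741 of 34945 probe sets with 1 symbol matched). Knockout minus control was estimated by limma 3.58.1 under R 4.3.3 (its lmFit, then eBayes; two-sided tests on genotype alone; Benjamini-Hochberg adjustment over all 45037 probe sets, threshold 0.05, 95% confidence intervals). The fit was tested on simulated data. The brightest probe set of a gene is the one with the highest mean over the arrays. Exact permutation tests used scipy 1.17.1, and figures matplotlib 3.10.9. The precision is limited by 3 arrays per group.

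The members and lists were chosen with earlier results of these data known. Genes named are the members, Fzd6, up to 3 genes per list with the smallest p and the 5 genes nearest to Lhx2.

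Arrays of the same replicate number deviated together (correlations 0.568, 0.359 and 0.124, each above 0.1), so the numbers may pair the arrays. Values in the text come from the fit without the block unless the replicate block is named. The pairing rests on the data alone, and control 2 was closer to knockout 3 (0.422) than to knockout 2. Alternatives were a variance trend, a filter at the median level, further quantile normalisation, centred arrays, array weights, the replicate block, covariates (Y-linked mean, basal list, suprabasal list), each array left out, and other thresholds and probe set choices. The suprabasal covariate was chosen after the data were seen.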

Additional observations from a re-analysis of the deposited data

How the results depend on the processing

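No member passed limma's adjusted threshold under any alternative run (smallest adjusted p = 0.335, in the fit with the replicate block). With the replicate block, 3 probe sets of the whole array passed, none of them a member, and no member changed its side of the adjusted threshold. At an unadjusted p under 0.05, 2348 probe sets, 4 member probe sets and 15 genes of the other lists passed, against 0 each after adjustment. Member genes with a higher value numbered 6 to 8 in the runs with all 9 genes, around 7. With the filter at the median level they were 5 of the 7 genes kept. The median difference of the member genes ran from 0.042, with that filter, to 0.19, with the suprabasal covariate, around 0.093. Of 389 values of member probe sets under the alternatives, 26 had the opposite sign (10 in Sox9, 6 in Sp6, 5 in Nfatc1, 3 in Trps1 and 2 in Msx2), and none of these values was past the threshold. Only the suprabasal covariate, chosen after the data were seen, moved values by more than the replicate SD, in 14 probe sets. It overlaps with genotype, and the cause was not tested. Lhx2 and 10 other sets lay below the median level and gave no value under the filter. No detection call accompanied the values, so how far the dim sets stood above background is unknown.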
